A study of Mus musculus with 3 samples.

Results

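The respiratory chain of mouse heart leukocytes was followed as 95 genes out of the 32285 in the count tables. Members were found by symbol: nuclear genes beginning with Nduf (followed by a, b, c, s or v), Uqcr, Cox4 to Cox8 or Atp5, and the protein-coding genes of mitochondrial DNA, each with a mean of at least 5 CPM (UMI counts scaled to a common total per library) over the 3 libraries. The symbols matched 103 genes, of which 95 passed the level filter: 82 encoded in the nucleus and all 13 encoded in mitochondrial DNA. The nuclear members were 37 complex I subunits, 8 complex III subunits, 14 complex IV genes, 17 complex V subunits and 6 complex I assembly factors, and they lay on 19 chromosomes with at most 7 on any of them. Just inside the filter were Ndufaf6 at 7.20 CPM, Cox6a2 at 8.27 CPM and Ndufaf7 at 10.8 CPM. Just outside were Ndufaf1 at 4.85 CPM and Ndufaf5 at 4.76 CPM, followed by the tissue-restricted genes Ndufa4l2 (3.86 CPM), Cox6b2 (3.37 CPM), Cox8b (2.33 CPM) and Cox4i2 (2.30 CPM); Cox7b2 and Cox8c had no UMI.

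The respiratory chain passes electrons from NADH and succinate to oxygen through complexes I to IV and pumps protons across the inner mitochondrial membrane, and complex V (ATP synthase) uses the proton gradient to make ATP. Complexes I, III, IV and V are each built from nuclear-encoded subunits imported from the cytosol and from a few core subunits encoded in mitochondrial DNA, so their assembly draws on transcripts from both genomes. In macrophages the chain supplies ATP, is a source of superoxide and of signalling metabolites, and is known to be remodelled with activation, whereas mature neutrophils hold few mitochondria and rely mostly on glycolysis.

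The data were 3 single-cell RNA-seq libraries of heart cells sorted for the leukocyte surface protein CD45, labelled Sham, MI (myocardial infarction, by the series title) and MI-E, with 1 library each. All came from C57BL/6J mice 8-9 weeks old, and no transgene or drug is named. The labels do not say what the E of MI-E stands for, how long after surgery the hearts were taken, or how many hearts were pooled. The same surgical text, ligation of the left anterior descending (LAD) coronary artery, is attached to all 3 libraries including Sham. With 1 library per group no test between groups was possible: levels are sums of UMIs (unique molecular identifiers, counted transcripts) over the cells of a class, divided by all UMIs of that class, and the 95% intervals are exact Poisson intervals that cover counting error only. A member was called higher or lower where its CPM differed by at least 1.5-fold, by the ratio of CPM itself, and the first count of called members in each comparison is set beside the share of all genes called in the same way. Because UMIs from the 3′ end depend on each transcript's end, levels were compared between libraries and classes, not between genes.

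The libraries held 11357, 9095 and 12707 barcodes and 41140109, 98814001 and 104562768 UMIs for Sham, MI and MI-E, with median UMIs per barcode of 2727, 9604 and 7287. Barcodes with over 10% mitochondrial UMIs (194, 231 and 405) and marked doublets (1032, 662 and 291) were removed, and 35, 26 and 45 barcodes were shared between MI and Sham, MI-E and MI, and MI-E and Sham. The remaining 10079, 8169 and 11989 cells fell into 27 clusters built without any member gene. Marker-defined classes had unequal sizes: 3894, 6628 and 6662 monocyte-macrophage cells, 422, 360 and 3006 neutrophils, 710, 73 and 270 T cells, 125, 366 and 570 dendritic cells, and 51, 63 and 138 fibroblasts in Sham, MI and MI-E. B cells (2965 and 317) and NK cells (302 and 87) were compared only between Sham and MI-E, since MI held 47 and 36 of them. Despite the label of immune cells, fibroblasts and an unnamed cluster led by the endothelial genes Fabp4, Ly6c1 and Cdh5 (cluster 7) were present in all 3 libraries.

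Since the nuclear members have no common locus, their promoters were examined for shared letters. Of the 82 nuclear members, 67 matched the RefSeq promoter table (GRCm38.p6), and the 250 bases upstream of each start were searched on both strands. The letters GCGCATGCG, the core recognised by nuclear respiratory factor 1 (a regulator of many respiratory chain genes), were found in 7 of 67 members (10.4%) and in 444 of all 27025 promoters of the table (1.64%). The 7 were Cox6a1, Ndufa8, Ndufa11, Atp5k, Atp5l, Atp5g2 and Ndufaf4. The letters CCGGAAGT of ETS factors were in 3 of 67 (4.48%) against 3.23% of all promoters, and AAGATGGCG of YY1 in 1 of 67 (1.49%) against 0.710%. Median GC content was 57.6% in members and 52% in all promoters, and the median number of CG dinucleotides was 15 against 6. The next 4 sequences are shown because they carry the nuclear respiratory factor 1 letters; each is 100 bases, 5′ to 3′ on the gene's strand, and the capitals mark the match on either strand, overlapping matches joined (GCGCATGCG overlaps its own reverse complement). Cox6a1 lies at chr5:115349067-115349166 (minus strand), Ndufa8 at chr2:36049339-36049438 (minus), Ndufa11 at chr17:56717656-56717755 (plus) and Atp5k at chr5:108434400-108434499 (minus).
Cox6a1: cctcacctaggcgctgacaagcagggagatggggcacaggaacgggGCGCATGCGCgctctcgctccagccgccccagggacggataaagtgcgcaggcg
Ndufa8: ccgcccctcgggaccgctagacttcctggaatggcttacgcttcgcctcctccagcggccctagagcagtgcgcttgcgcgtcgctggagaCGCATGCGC
Ndufa11: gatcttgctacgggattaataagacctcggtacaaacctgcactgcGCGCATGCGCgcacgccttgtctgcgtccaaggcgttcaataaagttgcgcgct
Atp5k: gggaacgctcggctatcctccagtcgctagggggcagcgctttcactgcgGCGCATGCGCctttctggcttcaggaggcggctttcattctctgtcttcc

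Complex IV contains subunits that come as a ubiquitous and a heart and skeletal muscle isoform, and the next 4 sequences show the 100 bases upstream of 2 such pairs, with each CG dinucleotide in capitals. The ubiquitous Cox7a2 (chr9:79759854-79759953, minus strand) and Cox8a (chr19:7217617-7217716, minus) held 14 and 11 CG dinucleotides in 250 upstream bases. The muscle isoforms Cox7a1 (chr7:30184071-30184170, plus) and Cox8b (chr7:140900447-140900546, minus) held 4 and 1.
Cox7a2: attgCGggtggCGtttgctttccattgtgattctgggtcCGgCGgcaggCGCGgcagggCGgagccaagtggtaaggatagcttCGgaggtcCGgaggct
Cox7a1: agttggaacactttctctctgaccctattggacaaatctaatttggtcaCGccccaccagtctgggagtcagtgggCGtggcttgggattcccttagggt
Cox8a: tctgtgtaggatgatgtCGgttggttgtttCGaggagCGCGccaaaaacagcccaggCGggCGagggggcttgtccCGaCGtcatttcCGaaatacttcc
Cox8b: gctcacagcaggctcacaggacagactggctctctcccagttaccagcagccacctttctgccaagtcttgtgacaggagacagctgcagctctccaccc

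In monocyte-macrophage cells the nuclear and mitochondrial sets stood in opposite order across the libraries. The 82 nuclear members made up 1.67% of UMIs in the Sham library, against 3.07% in MI and 2.38% in MI-E. The 13 mitochondrial genes made up 2.90%, 1.33% and 1.89%. The nuclear set was therefore lowest in Sham and highest in MI, the mitochondrial set was highest in Sham and lowest in MI, and MI-E lay between them in both. MI over Sham, the nuclear set was 1.84-fold higher (95% interval 1.83 to 1.84) and the mitochondrial set 2.18-fold lower (2.17 to 2.19). MI-E over MI, the ratios were 0.775 (0.774 to 0.777) for the nuclear set and 1.42 (1.41 to 1.42) for the mitochondrial set. For each nuclear UMI there were 1.74, 0.434 and 0.793 mitochondrial ones.

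Medians over cells stood in the same order. The median cell had 1.52% (quartiles 1.21 to 1.90) nuclear-set UMIs in Sham, against 2.94% (2.55 to 3.32) in MI and 2.31% (1.99 to 2.62) in MI-E. For the mitochondrial set the medians were 2.63% (1.97 to 3.6), 1.22% (0.942 to 1.57) and 1.71% (1.31 to 2.22). Counted as UMIs per cell, the nuclear set averaged 91.9, 347 and 259 while the mitochondrial set averaged 160, 151 and 205, at median depths of 5007.5, 10034.5 and 9571 UMIs. Mitochondrial UMIs per cell were thus near each other in Sham and MI, while nuclear-set and total UMIs per cell were higher in MI. UMIs per cell also depend on the depth of each library, so these counts do not measure RNA per cell. Cells with 4000 to 8000 UMIs gave 1.64 and 0.462 for the nuclear and mitochondrial sets MI over Sham.

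**Figure D1:**
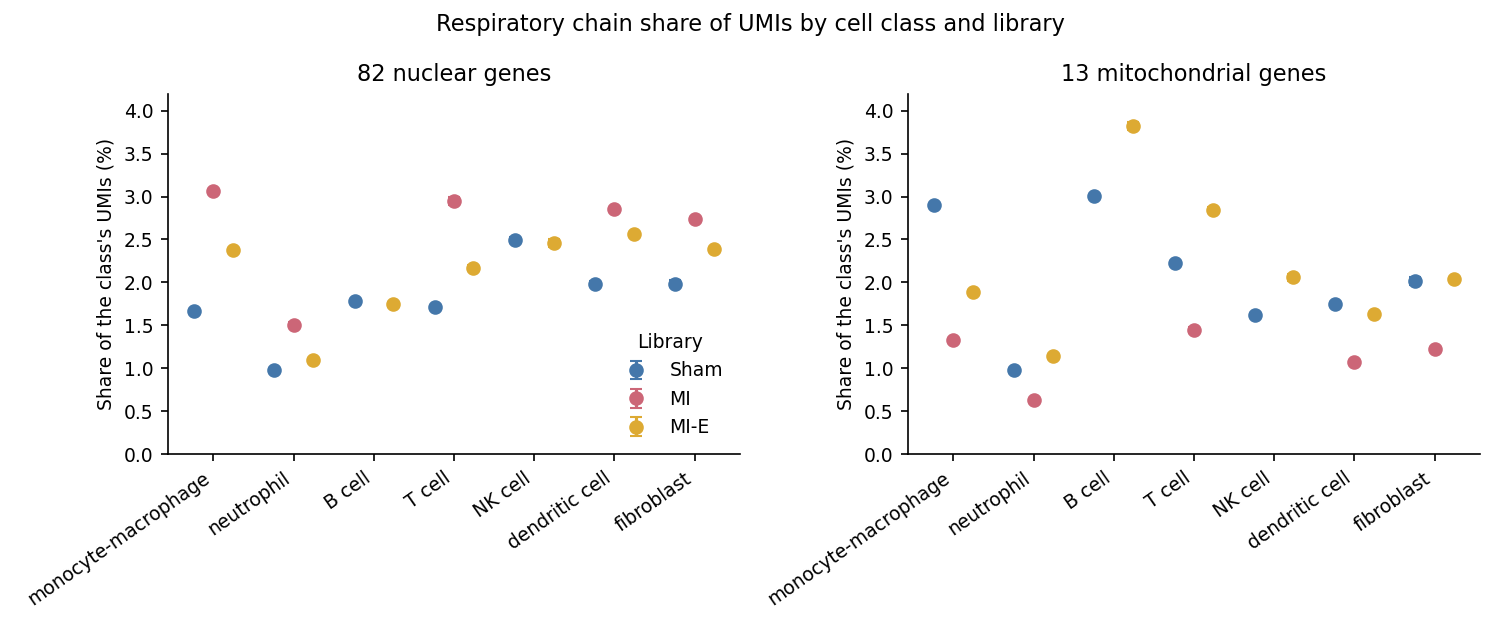
Share of UMIs (%) from the 82 nuclear genes (left) and the 13 mitochondrial genes (right) in 7 cell classes, 1 point per library with exact 95% Poisson intervals that are mostly narrower than the point; classes with under 50 cells in a library are not drawn. Where all 3 libraries are drawn, MI is highest on the left and lowest on the right, as in monocyte-macrophage cells at 3.07% and 1.33%.

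The monocyte-macrophage class was made of different cells in each library, and set levels differed between clusters of 1 library. In Sham most of the class lay in clusters 2 (1874 cells, led by Lyve1, Cd163 and Folr2), 3 (1197 cells, led by MHC class II genes) and 6 (505 cells, led by C1qa and Hpgd). In MI and MI-E it lay in clusters 10 (2059 and 1629 cells, led by Spp1 and Gpnmb), 18 (1332 and 663, Spp1 and Ms4a7), 15 (913 and 2218, led by the monocyte genes Plac8 and Ly6c2), 16 (913 and 1557, Arg1) and 19 (683 and 171, led by cell cycle genes). Cluster 3 of Sham had 2.23 mitochondrial UMIs for each nuclear one, and cluster 15 of the same library 0.722.

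Within clusters held by both libraries the nuclear set was higher in MI than in Sham, and the mitochondrial difference was smaller than the pooled one. Cluster 2 had ratios of 1.73 for the nuclear and 0.679 for the mitochondrial set, cluster 15 had 1.25 and 0.722, and cluster 6, with 50 MI cells, had 1.67 and 1.02 (0.996 to 1.04). With these clusters weighted equally the nuclear set was 1.53 and the mitochondrial set 0.818 times its Sham level. In that weighting 43 in place of 64 nuclear members were at least 1.5-fold higher. Of the mitochondrial genes 4 in place of 13 were at least 1.5-fold lower. By class totals 25.3% of all genes were at least 1.5-fold higher and 18.7% lower. The share of all genes under equal weighting was not computed. MI-E over Sham, the pooled ratios of 1.42 and 0.650 became 1.12 and 1.11 in the shared clusters, so the direction of the mitochondrial set turned; cluster 2 gave 1.35 and 1.19, cluster 15 gave 1.08 and 1.13, and cluster 21 (nonclassical monocytes, Treml4 and Ace) 0.958 and 0.972. MI-E over MI held the same direction in clusters 2, 9, 10, 15, 16, 18 and 19: between 0.776 and 0.864 for the nuclear set and between 1.48 and 1.75 for the mitochondrial set.

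**Figure D2:**
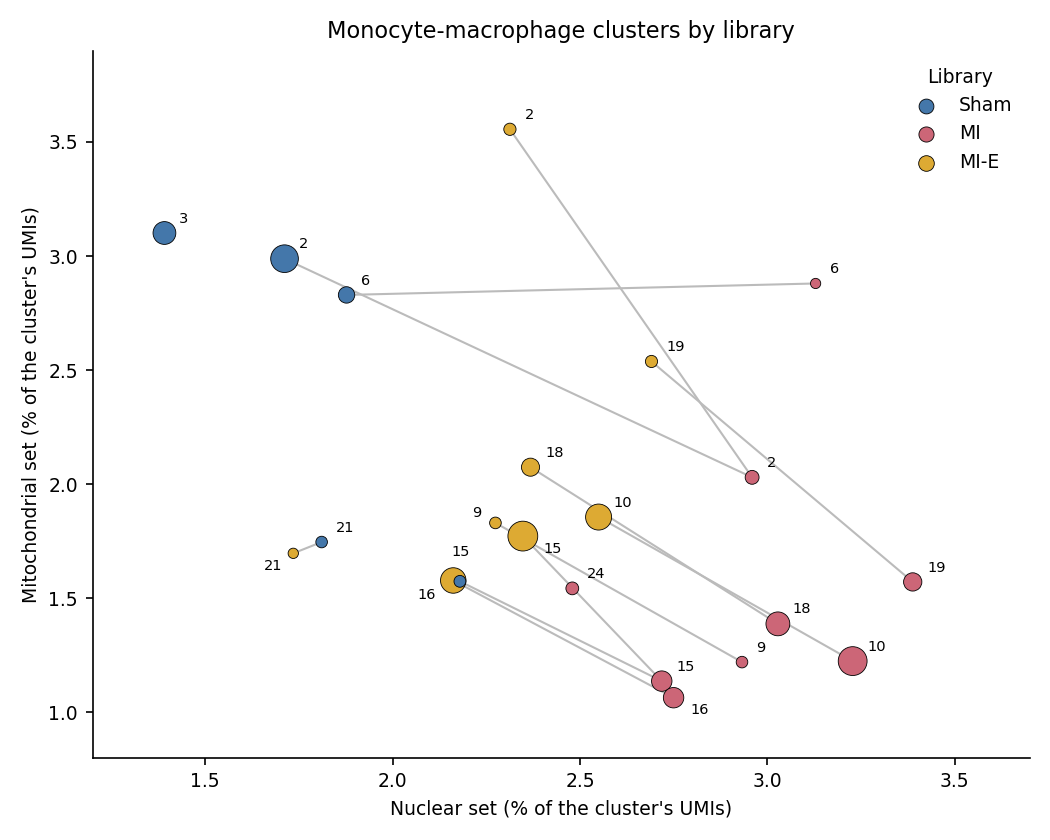
Nuclear-set share (x axis, % of UMIs) against mitochondrial-set share (y axis, % of UMIs) for each monocyte-macrophage cluster with at least 50 cells in a library; colour is the library, area grows with the number of cells, numbers name the clusters, grey lines join the same cluster in the order Sham, MI, MI-E, and the axes do not start at 0. The large Sham clusters 2, 3 and 6 sit at upper left and most MI clusters at lower right. MI cluster 6 sits at upper right (3.13% nuclear and 2.88% mitochondrial). Each cluster joined from MI to MI-E moves up and to the left.

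Stress, cell cycle and cardiomyocyte transcripts also differed between the libraries of this class. The 18 dissociation stress genes (immediate early and heat shock genes) summed to 24130, 5344 and 5043 CPM, and 17 of 18 were at least 1.5-fold lower in MI than in Sham. Among cells with at most 1% stress UMIs the nuclear and mitochondrial ratios MI over Sham were 1.65 and 0.528, and in cluster 15, where the stress sum was 5321, 4669 and 4750 CPM, they were 1.25 and 0.722. The 20 proliferation genes summed to 469, 1109 and 476 CPM, and with cycling cells left out the ratios were 1.80 and 0.434. The 11 cardiomyocyte markers summed to 114, 21.4 and 30.5 CPM with none at 0; their part in the mitochondrial values was not tested. Macrophage markers summed to 43006, 18513 and 16264 CPM, and neutrophil markers to 476, 216 and 424 CPM with 1 of 13 at 0 in MI.

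Of the 82 nuclear members, 64 (78.0%) were at least 1.5-fold higher in MI than in Sham monocyte-macrophage cells, against 25.3% of all 8445 genes measured, and 1 was lower, against 18.7% of all genes. The median log2 ratio of CPM + 1 was 0.83 for the nuclear members and 0.12 for all genes. All 13 mitochondrial genes were at least 1.5-fold lower, with a median of -1.22. Scaling by TMM factors in place of class totals moved all genes by 0.17 on the log2 scale in this comparison. Under it 71 nuclear members were higher and 12 mitochondrial genes lower, and the share of all genes was not computed.

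Complex I takes electrons from NADH. Its 37 nuclear subunits summed to 4782, 9240 and 7122 CPM in the order Sham, MI, MI-E, and 30 of 37 were higher in MI. The 7 nuclear core subunits, which carry the redox centres, were 1.52-fold higher as a sum (1.49 to 1.55; 4 of 7 called) and the 30 accessory subunits 1.98-fold higher (1.96 to 1.99; 26 of 30 called). Among the accessory subunits Ndufc1 rose the most, from 123 CPM in Sham to 415 in MI with 269 in MI-E, a 3.36-fold difference (3.23 to 3.5). Ndufb1-ps, filed under a pseudogene-type symbol, had 357, 747 and 535 CPM and was 2.09-fold higher (2.04 to 2.14). Both were lowest in Sham and highest in MI.

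The core subunit Ndufv1, which binds NADH and its flavin, had 41.0, 45.1 and 50.7 CPM, a ratio of 1.10 (1.02 to 1.19) that was not called. Ndufa9, an accessory subunit at the junction of the arms, had 34.6, 49.2 and 56.0 CPM and a ratio of 1.42 (1.31 to 1.54), also not called. Unlike most members, both were highest in MI-E. Ndufs1, the largest iron-sulfur core subunit, had 15.6, 30.8 and 26.8 CPM and was 1.97-fold higher in MI (1.76 to 2.22). The subunits Ndufs7, Ndufa6, Ndufa7 and Ndufb10 were also short of 1.5-fold.

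Complex III, which passes electrons from ubiquinol to cytochrome c, had the smallest share of called subunits, 3 of 8. It summed to 1827, 2969 and 2230 CPM. The small subunit Uqcrq had 265, 651 and 484 CPM and was 2.45-fold higher (2.39 to 2.52), and Uqcr11 and Uqcr10 were the others called. The hinge subunit Uqcrh had 429, 478 and 405 CPM, a ratio of 1.11 (1.09 to 1.14). Uqcrc2, a core protein of the matrix arm, had 57.0, 65.2 and 74.6 CPM, a ratio of 1.14 (1.07 to 1.22), so its 3 levels lay close together and were highest in MI-E.

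In complex IV, cytochrome c oxidase, 12 of 14 genes were higher in MI and 1 was lower. Cox8a, a small ubiquitous subunit, had 711, 1239 and 936 CPM, a 1.74-fold difference (1.71 to 1.77). Cox5a, a matrix-side subunit, had 258, 696 and 537 CPM and was 2.70-fold higher (2.62 to 2.77). Cox4i1, among the first nuclear subunits to join the core, had 447, 713 and 791 CPM and was 1.60-fold higher (1.56 to 1.63). These subunits were lowest in Sham, and Cox4i1 alone of the called complex IV members was higher in MI-E than in MI. Cox7a2l, which joins complex IV to complex III in supercomplexes, went the other way with 165, 110 and 108 CPM; its 1.49-fold lower level (1.43 to 1.55) fell just short of the call.

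Complex V, ATP synthase, was 1.90-fold higher as a sum (1.89 to 1.91), with 15 of 17 subunits called. Atp5e, the epsilon subunit of the catalytic head, had 685, 1455 and 1016 CPM and was 2.12-fold higher (2.09 to 2.16). Atp5g1, 1 of 3 genes for the c subunit of the proton-driven ring, had 250, 625 and 478 CPM and was 2.50-fold higher (2.43 to 2.57). The 2 subunits that were not called were catalytic or central: Atp5b (beta) had 241, 349 and 439 CPM, a ratio of 1.45 (1.41 to 1.5), and Atp5c1 (gamma, the central shaft) had 214, 264 and 276 CPM, a ratio of 1.23 (1.19 to 1.27).

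Of the 6 complex I assembly factors 4 were higher in MI. Ndufaf8 had 59.0, 104 and 77.4 CPM (1.77-fold, 1.67 to 1.88) and Ndufaf3, which acts early on the quinone module, had 18.3, 40.6 and 37.5 CPM (2.22-fold, 2.00 to 2.47). Ndufaf4, a partner of Ndufaf3, had 16.5, 22.6 and 14.3 CPM, a ratio of 1.37 (1.22 to 1.54). Ndufaf7, a methyltransferase, had 14.4, 9.59 and 8.21 CPM and was highest in Sham, at a ratio of 0.668 (0.583 to 0.766) just short of the call.

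**Figure D3:**
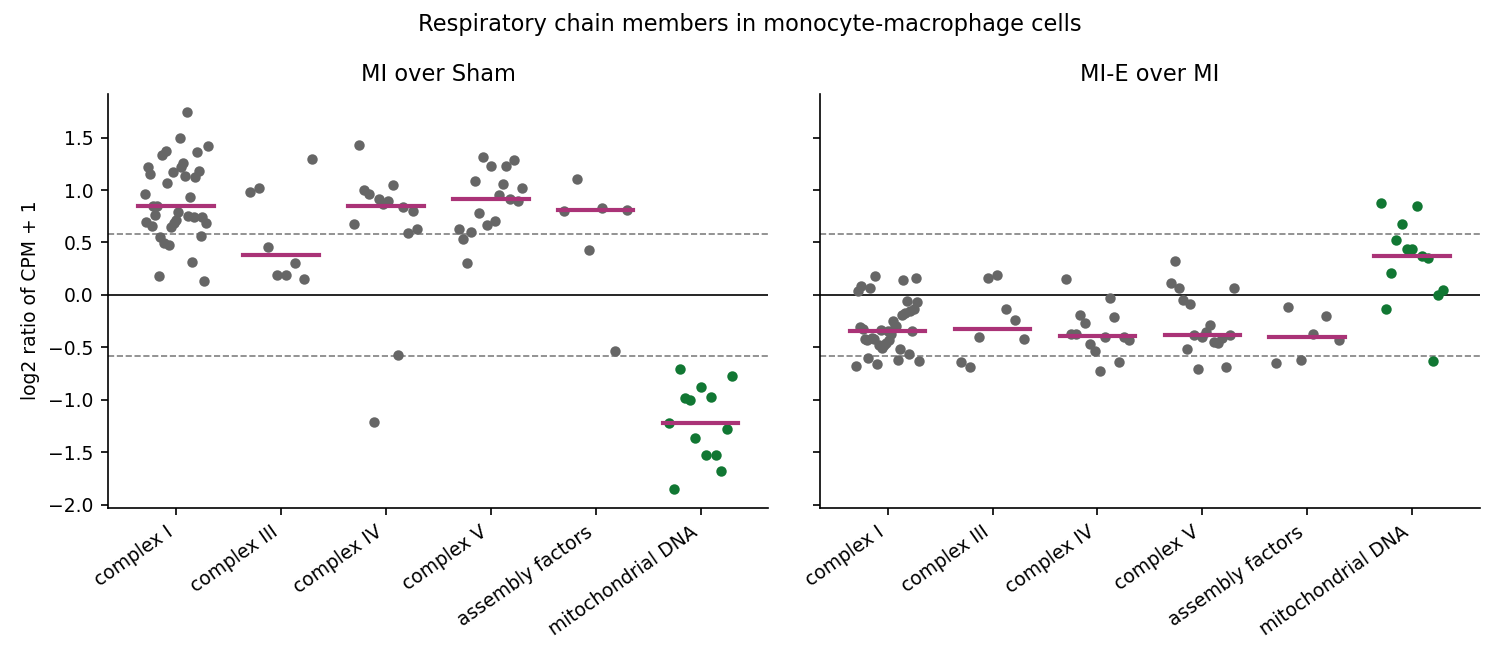
log2 ratio of CPM + 1 in monocyte-macrophage cells for each member, MI over Sham (left) and MI-E over MI (right), grouped by complex; grey points are nuclear genes, green points mitochondrial genes, bars are group medians and dashed lines mark 1.5-fold. On the left 64 nuclear members lie above the upper line and all 13 mitochondrial genes below the lower line; on the right most nuclear members lie between the lines, below 0.

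Each of the 13 mitochondrial genes was highest in Sham monocyte-macrophage cells. These genes are transcribed as long precursors that are cut into single messages, except that mt-Atp8 with mt-Atp6 and mt-Nd4l with mt-Nd4 stay on shared transcripts; by their GRCm38 coordinates (GENCODE M21) mt-Atp8 (chrM:7766-7969) overlaps mt-Atp6 (chrM:7927-8607), and mt-Nd4l (chrM:9877-10173) overlaps mt-Nd4 (chrM:10167-11544). The deposited counts of these pairs, and of members with near-identical nuclear copies, could be split by the counting. By complex the sums MI over Sham were 0.392 for the 7 complex I genes (7942 to 3113 CPM), 0.387 for mt-Cytb of complex III, 0.537 for the 3 complex IV genes (12831 to 6889 CPM) and 0.412 for the 2 complex V genes (5136 to 2116 CPM).

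The largest differences were in mt-Atp8, which stabilises the ATP synthase membrane part, and mt-Nd4l, a small proton-pumping core subunit of complex I. mt-Atp8 had 606, 167 and 153 CPM and was 3.62-fold lower in MI (3.53 to 3.71). mt-Nd4l had 1268, 396 and 257 CPM and was 3.20-fold lower (3.15 to 3.25). In both genes MI-E did not stand between the other libraries but was the lowest.

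Among the other complex I genes, all membrane-arm core subunits, mt-Nd2 had 1543, 534 and 963 CPM (2.89-fold lower in MI, 2.84 to 2.93). mt-Nd4 had 2608, 907 and 1157 CPM (2.88-fold, 2.84 to 2.91), and mt-Nd5 had 581, 239 and 239 CPM (2.43-fold, 2.37 to 2.48). Of these mt-Nd5 was at the same level in MI and MI-E. mt-Nd1 had 1377, 747 and 1011 CPM (1.84-fold, 1.82 to 1.87), and mt-Nd3 had 549, 279 and 362 CPM (1.97-fold, 1.92 to 2.01). mt-Nd6, the single member on the other strand, was sparse at 17.0, 9.55 and 9.93 CPM (1.78-fold, 1.56 to 2.02). Each was lowest in MI or level between MI and MI-E within its interval.

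mt-Cytb, the quinone-binding core of complex III, had 3134, 1214 and 1647 CPM and was 2.58-fold lower in MI (2.56 to 2.61). Of the 13 genes mt-Co1, the complex IV core subunit that holds the oxygen-reducing centre, differed least, with 4046, 2478 and 2864 CPM (1.63-fold, 1.62 to 1.65). mt-Co2, which receives electrons from cytochrome c, had 5106, 2577 and 3703 CPM (1.98-fold, 1.97 to 2.00). For these genes the order was Sham, MI-E, MI. mt-Co3, also of the core, had 3678, 1835 and 2926 CPM (2.01-fold, 1.99 to 2.02), and mt-Atp6, part of the proton channel, had 4529, 1948 and 3579 CPM (2.33-fold, 2.31 to 2.34).

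The pairs on shared transcripts separated in MI-E in each of the 7 classes compared. MI-E over Sham, mt-Atp6 was 0.790 in monocyte-macrophage cells and between 1.16 (dendritic cells) and 1.71 (B cells) in the others, while mt-Atp8 was 0.252 and between 0.418 (dendritic cells) and 0.678 (NK cells). In the same comparison mt-Nd4 was 0.444 in monocyte-macrophage cells and between 0.684 and 1.01 elsewhere, while mt-Nd4l was 0.202 and between 0.387 (fibroblasts) and 0.572 (B cells). In every class the shorter, upstream gene of the pair was thus lower relative to Sham than its partner. MI over Sham, the pairs lay closer in the 5 classes compared: mt-Atp8 was 0.619 and mt-Atp6 0.620 in neutrophils, and 0.276 and 0.430 in monocyte-macrophage cells.

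**Figure D4:**
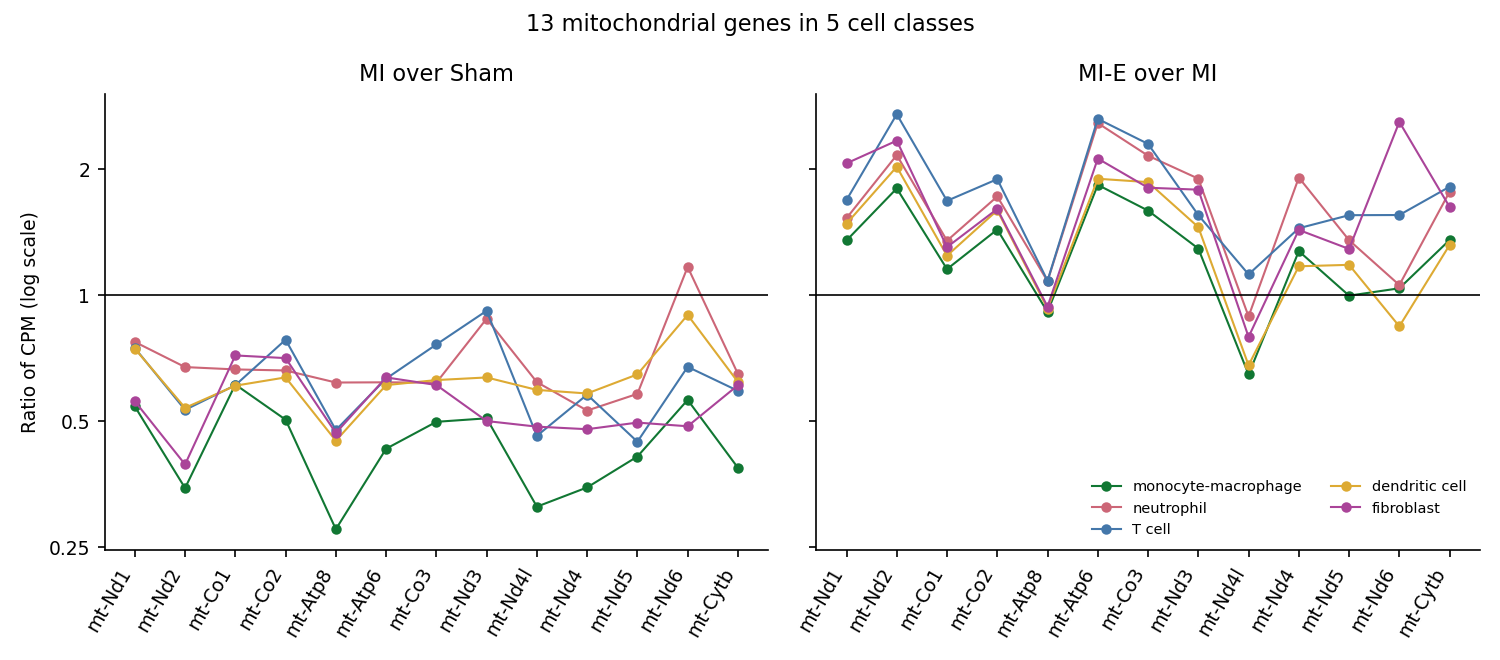
Ratio of CPM (log scale) for the 13 mitochondrial genes in genome order, MI over Sham (left) and MI-E over MI (right), 1 line per cell class; the line at 1 is no difference. On the left every point but mt-Nd6 in neutrophils lies below 1, and on the right mt-Atp8 and mt-Nd4l drop below their neighbours in each of the 5 classes.

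MI-E over MI, no nuclear member of monocyte-macrophage cells was at least 1.5-fold higher, against 4.67% of all genes, and 13 of 81 measured were at least 1.5-fold lower, against 5.42% of all genes. The median log2 ratio was -0.37 for nuclear members and 0.02 for all genes. In clusters shared by both libraries, weighted equally, 3 members were lower and the set ratio was 0.795. The share of all genes was not computed for that weighting. Of the mitochondrial genes 3 of 13 were at least 1.5-fold higher, mt-Atp6 (1.84), mt-Nd2 (1.80) and mt-Co3 (1.59), and 1, mt-Nd4l, was 1.55-fold lower (1.52 to 1.57); in the shared clusters 7 were higher and none lower.

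Of the members lower in MI-E, 11 were subunits and 2 assembly factors. Ndufa1, a small membrane subunit of complex I, had 398 CPM in MI and 249 in MI-E (1.60-fold lower, 1.57 to 1.63). Uqcr11 of complex III had 591 and 366 CPM (1.61-fold, 1.59 to 1.64). Atp5g2, another c subunit gene, had 681 and 416 CPM (1.64-fold, 1.61 to 1.66). In each the MI-E level lay nearer to Sham than to MI. Ndufaf2, an assembly factor for the peripheral arm, had 37.1 and 23.3 CPM (1.59-fold, 1.5 to 1.69), and the muscle isoform Cox7a1 had 25.8 and 15.3 CPM (1.69-fold, 1.57 to 1.82). The 13 nuclear members with a ratio above 1 included catalytic and core subunits: Atp5b (1.26, 1.24 to 1.28), Uqcrc2 (1.14, 1.10 to 1.19), Ndufa9 (1.14, 1.09 to 1.19), Ndufv1 (1.12, 1.07 to 1.18) and Cox4i1 (1.11, 1.10 to 1.12). Summed, complex I core subunits had a ratio of 0.922 (0.910 to 0.933) and accessory subunits 0.758 (0.755 to 0.761).

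The MI-E over MI ratio varied with annotated transcript length, in members and in other genes. Length is that of each gene's longest annotated protein-coding transcript, which need not be the one expressed. Across the 80 nuclear members with a length (GENCODE M21; 81 of 82 have one) Spearman's rho between length and ratio was 0.40, and across 7879 other genes it was 0.16; genes of a library share its depth and chemistry, so these are descriptions. The 36 members of at most 800 bases had a median ratio of 0.749 and the 217 other genes of that length 0.793. The 25 members of 800 to 1600 bases had 0.801 and other genes 0.923, and the 15 members of 1600 to 3200 bases had 1.03 against 1.03. The 4 members over 3200 bases had 0.683 against 1.04, too few to read. MI over Sham, rho was -0.10 in members and -0.10 in other genes, and members of at most 800 bases had a median ratio of 1.82 against 1.35 for other genes.

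MI-E over Sham, which shares its Sham library with the first comparison, 37 of 82 nuclear members (45.1%) were at least 1.5-fold higher against 25.6% of all genes, and 3 were lower against 19.5%: Cox6a2 (3.26-fold), Ndufaf7 (1.75-fold) and Cox7a2l (1.52-fold). Of the mitochondrial genes 8 of 13 were lower. In the shared clusters, weighted equally, 15 nuclear members were higher and 3 mitochondrial genes lower. The shares of all genes above are by class totals and were not computed for that weighting.

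Tissue isoforms of complex IV differed between cell populations. Cox6a2, the heart and muscle form of subunit 6a, had 12.2, 4.70 and 3.74 CPM in Sham, MI and MI-E monocyte-macrophage cells and was the single nuclear member at least 1.5-fold lower in MI (2.59-fold, 2.20 to 3.05). In cluster 2 alone it had 12.1, 12.3 and 10.5 CPM, in cluster 15 it had 1.08, 0.878 and 1.73 CPM, and in cluster 6 it had 14.2 CPM in Sham and 1 UMI in MI. Its level in cluster 2 thus lay above that in cluster 15 in every library. Its ubiquitous partner Cox6a1 had 175, 341 and 299 CPM. Cox7a1, the muscle form of subunit 7a, had 13.4, 25.8 and 15.3 CPM, with 14.4, 29.1 and 18 CPM in cluster 2 and 33.2 and 21.3 CPM in cluster 10 of MI and MI-E. In contrast to Cox6a2 it was highest in MI within cluster 2 as well as in the pooled class, as was its ubiquitous partner Cox7a2 (341, 706 and 533 CPM).

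In dendritic cells Cox6a2 had 9.92, 2.99 and 13.9 CPM. In a split made after these values were seen, 37 of 570 MI-E dendritic cells had UMIs for at least 3 of 7 plasmacytoid dendritic cell markers, and they held 68 of the 80 Cox6a2 UMIs, in 10 of the cells. Their level was 225 CPM (175 to 285), and that of the other 533 cells was 2.19 CPM (1.13 to 3.83). In MI 7 such cells held 8 of 11 UMIs, and in Sham 2 such cells held 5 of 9. The cardiomyocyte marker sum of the MI-E cells was 23.1 CPM with, and 20.1 CPM without, the plasmacytoid markers. In each library most Cox6a2 UMIs of the class thus came from few cells.

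The other tissue forms were sparse in monocyte-macrophage cells. Cox8b, a muscle form, had 4.90, 0.720 and 0.759 CPM in monocyte-macrophage cells and 37.6, 8.95 and 15.7 CPM in cluster 7, where the cardiomyocyte markers summed to 1522, 344 and 634 CPM. Cox4i2, the lung and hypoxia form of subunit 4, had 47.6, 17.9 and 53.3 CPM in cluster 7 and 0.886, 1.15 and 0.979 CPM in monocyte-macrophage cells. Ndufa4l2, the hypoxia-induced relative of the complex IV subunit Ndufa4, had 116, 121 and 82.7 CPM in fibroblasts and 1.07, 0.387 and 0.579 CPM in monocyte-macrophage cells. These 3 genes were thus highest outside the leukocyte classes. Cox6b2, the testis form, had 8.77, 2.04 and 2.14 CPM in monocyte-macrophage cells and 14.3, 4.63 and 3.47 CPM in dendritic cells, against 481, 904 and 652 CPM of Cox6b1 in the former. Cox7b2 and Cox8c had no UMI, which allows up to 0.140, 0.0400 and 0.0414 CPM in monocyte-macrophage cells of the 3 libraries (3 UMIs of the class total, counting error only); their partner Cox7b had 225, 403 and 349 CPM, and Ndufa4 had 361, 558 and 414.

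**Figure D5:**
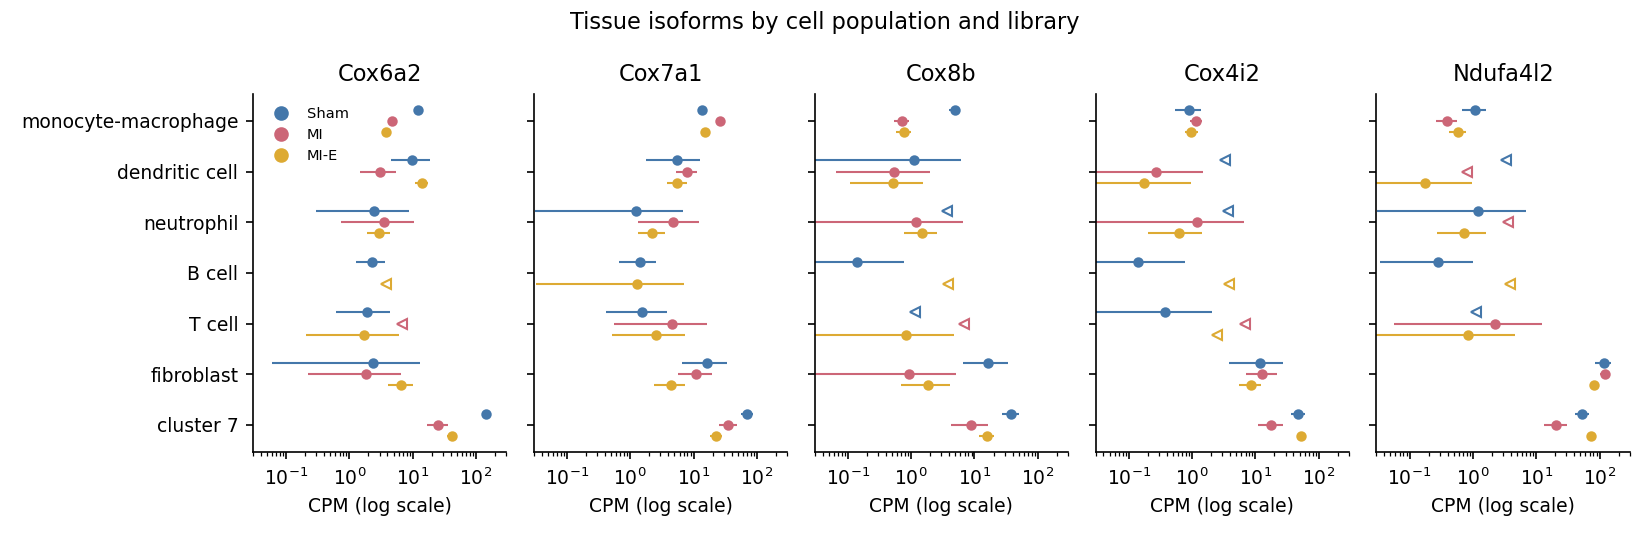
Level (CPM, log scale) of 5 tissue isoforms in 6 classes and in cluster 7, 1 point per library with exact 95% Poisson intervals, cut off at the left edge where they reach below the axis; open triangles mark the CPM of 3 UMIs where no UMI was found, and libraries with under 50 cells of a class are not drawn. Cluster 7 holds the highest Cox6a2 level (145 CPM in Sham) and fibroblasts the highest Ndufa4l2 level (121 CPM in MI).

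Other genes of the pathway were taken from lists, whose counts MI over Sham stand beside 25.3% of all genes higher and 18.7% lower. Of 5 genes for complex II and cytochrome c, 4 were at least 1.5-fold higher in MI than in Sham: Cycs (cytochrome c) had 178, 446 and 398 CPM (2.50-fold, 2.42 to 2.59), while Sdha, Sdhb and Sdhc were 1.64-, 1.64- and 1.83-fold higher and Sdhd, a membrane anchor, had 60.6, 68.2 and 48.0 CPM. Of 17 citric acid cycle and pyruvate entry genes 11 were higher and 0 lower, with a median log2 ratio of 0.68; Ogdh (2-oxoglutarate dehydrogenase) had 29.0, 62.5 and 70.8 CPM. Of 77 mitochondrial ribosomal proteins 55 were higher and 1 (Mrps6, 79.0, 27.6 and 22.0 CPM) lower, with a median of 0.82, near that of the nuclear members. Of 27 measured assembly factors outside the symbol rule 7 were higher, a share near that of all genes, and 1 lower; the copper chaperone Cox17 had 184, 395 and 316 CPM, and the lower one was Bcs1l, which inserts the Rieske protein into complex III, at 8.30, 4.86 and 3.74 CPM. Among 7 carriers and channels Vdac1 and Vdac2 were called higher and none lower.

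For regulators of mitochondrial transcription and biogenesis the count was small. Of 18 listed 11 were measured; 2 were higher in MI than in Sham and 0 lower, with a median log2 ratio of 0.01. Slirp and Lrpprc, partners that stabilise mitochondrial messages, were the 2: Slirp had 58.4, 121 and 91.3 CPM and Lrpprc 8.95, 19.4 and 19.8 CPM. Tfam, which packages mitochondrial DNA and starts its transcription, had 10.6, 9.84 and 7.75 CPM, and Nrf1 had 12.7, 12.8 and 16.3 CPM. Neither was called. The DNA polymerase subunit Polg2 (6.90, 2.43 and 2.00 CPM) and the helicase Twnk (6.20, 2.48 and 2.84 CPM) were under the level filter. MI-E over MI, 4.67% of all genes were at least 1.5-fold higher and 5.42% lower. In that comparison none of the complex II, citric acid cycle or carrier genes was called in either direction. Lower were 7 of 77 ribosomal proteins and 2 of 28 assembly factors (Coa6 and Uqcc3), the latter near the share of all genes. Ssbp1, the mitochondrial single-strand binding protein, was the 1 regulator called (66.5 and 42.6 CPM).

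Neutrophils of each library had less of both sets than monocyte-macrophage cells of the same library. Their nuclear shares were 0.982%, 1.51% and 1.09% and their mitochondrial shares 0.981%, 0.629% and 1.15% in Sham, MI and MI-E. The nuclear set was 1.70-, 2.04- and 2.18-fold lower and the mitochondrial set 2.96-, 2.12- and 1.65-fold lower than in monocyte-macrophage cells. By class totals, at least 1.5-fold lower were 66, 67 and 72 of 81 nuclear members, against 57.5%, 49.9% and 52.5% of all genes. Of the 13 mitochondrial genes 13, 10 and 6 were lower, and the MI-E count was a smaller share than the 52.5% of all genes. TMM factors moved all genes by 0.49, 0.22 and 0.31 on the log2 scale here. They gave nuclear ratios of 0.825, 0.571 and 0.570 and mitochondrial ratios of 0.474, 0.548 and 0.755. Under them 48, 62 and 60 nuclear members were lower, and the share of all genes was not computed. Neutrophils were shallow, at median UMIs of 1741.5, 1764.5 and 2107, and lay in cluster 5 in Sham and in clusters 23 and 26 in MI and MI-E.

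The members differed from each other in this contrast; the 3 lowest and 3 highest of each library are named, ranked by the log2 ratio of CPM + 1 among members with at least 20 CPM in either class. Ndufa5, an accessory complex I subunit, was among the lowest in MI (22.7 CPM in neutrophils against 193; 8.49-fold, 5.43 to 14.1) and in MI-E (14.2 against 127; 8.93-fold, 7.44 to 10.8). In Sham the lowest were Ndufc2, at 12.3 against 167 CPM (13.6-fold, 7.38 to 28.4), Ndufa12 (10.8-fold, 4.61 to 33.2) and Uqcrb (8.48-fold, 6.06 to 12.3). Further low members were Ndufa11 in MI (6.19-fold, 4.36 to 9.11), Ndufa9 (6.53-fold, 5.15 to 8.39) and Ndufa4 (6.05-fold, 5.56 to 6.59) in MI-E, and Ndufaf4 in MI, with 1 UMI and a ratio of 0.0530 (0.00134 to 0.296). At the other end Cox8a was higher in Sham neutrophils, at 1.31 (1.22 to 1.41), and near level in MI (0.941, 0.882 to 1.00) and MI-E (1.00, 0.978 to 1.03). Atp5md (2.09, 1.90 to 2.29) and Ndufaf7 (1.79, 1.09 to 2.79) were higher in Sham neutrophils. Ndufa7 (0.947) and Ndufs7 (0.865) were the others among the 3 highest in MI, and mt-Atp8 (0.913, 0.859 to 0.971) and mt-Nd4l (0.909, 0.867 to 0.953) in MI-E.

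The opposite order of the sets between Sham and MI was present in every class with at least 50 cells in both. The nuclear set MI over Sham was 1.54 (1.49 to 1.58) in neutrophils, 1.72 (1.69 to 1.75) in T cells, 1.44 (1.41 to 1.46) in dendritic cells and 1.38 (1.35 to 1.41) in fibroblasts. The mitochondrial set was, in the same order, 0.641 (0.619 to 0.664), 0.648 (0.631 to 0.665), 0.616 (0.605 to 0.628) and 0.608 (0.591 to 0.625). Neutrophils lay mostly in cluster 5 in Sham and in clusters 23 and 26 in MI; the 18 MI cells of cluster 5 had a nuclear share of 0.897% (0.793 to 1.01) against 0.981% (0.959 to 1.00) in Sham, and a mitochondrial share of 0.730% against 0.980%. The higher nuclear share of MI neutrophils was thus not seen within cluster 5. In cluster 23, with 19 Sham and 134 MI cells, the nuclear share was higher in MI, at 1.22% (1.18 to 1.26) against 0.935% (0.831 to 1.05). The mitochondrial share there was 0.556% in MI against 0.839% in Sham. Cluster 26 held only 4 Sham cells. Macrophage markers in fibroblasts summed to 11860 CPM in Sham, against 3455 and 2814 CPM in MI and MI-E, and their part in the fibroblast values was not tested. In neutrophils 52 of 78 nuclear members were at least 1.5-fold higher against 41.1% of all genes, and 9 of 13 mitochondrial genes lower against 17.6%. In T cells the counts were 55 of 79 against 37.3% and 8 of 13 against 15.7%. In dendritic cells they were 40 of 82 against 29.9% and 11 of 13 against 12.9%. In fibroblasts they were 20 of 81, near the 24.6% of all genes, and 11 of 13 against 27.2%. The fibroblast share of called nuclear members was thus near that of all genes.

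The stress sum did not differ in the same way in all of these classes. It was 7069 CPM in Sham and 10593 in MI neutrophils, 7095 and 4940 in T cells, 7158 and 4901 in dendritic cells, and 25346 and 8047 in fibroblasts; its part in these values was not tested. Proliferation genes in T cells summed to 381, 4136 and 1011 CPM; their part in the T cell values was not tested. Under TMM factors, which moved all genes by -0.38 and -0.40 on the log2 scale in neutrophils and T cells, the nuclear ratios were 1.18 and 1.30.

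MI-E over MI, the nuclear set was 0.725 (0.711 to 0.738) in neutrophils, 0.737 (0.721 to 0.752) in T cells, 0.900 (0.893 to 0.908) in dendritic cells and 0.873 (0.861 to 0.885) in fibroblasts. The mitochondrial set was 1.82 (1.77 to 1.87), 1.97 (1.92 to 2.03), 1.52 (1.5 to 1.54) and 1.66 (1.63 to 1.69). In neutrophils 27 of 79 nuclear members were at least 1.5-fold lower against 15.2% of all genes, and 8 of 13 mitochondrial genes higher against 9.57%; clusters 23 and 26 taken alone gave nuclear ratios of 0.790 and 0.761 and mitochondrial ratios of 1.90 and 1.96. Cluster 7, led by endothelial genes, gave 1.40 and 0.676 MI over Sham and 0.791 and 1.51 MI-E over MI. It was left unnamed because cardiomyocyte markers scored in it as a second lineage. Those markers summed to 1522, 344 and 634 CPM in Sham, MI and MI-E. Their part in the cluster 7 values was not tested.

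MI-E over Sham, the classes did not share a direction. In B cells the nuclear set was 0.978 (0.961 to 0.996) and the mitochondrial set 1.27 (1.26 to 1.29), from shares of 1.78% and 1.74% and of 3.0% and 3.82% in Sham and MI-E. In NK cells the ratios were 0.985 (0.963 to 1.01) and 1.27 (1.24 to 1.31). In T cells both sets were higher in MI-E by class totals (1.27 and 1.28), but under TMM factors the nuclear ratio turned to 0.991 and the mitochondrial one was 1.00. With doublets kept, the nuclear ratios of B and NK cells turned to 1.06 and 1.00, and without the mitochondrial filter that of NK cells turned to 1.02. Red blood cell markers of NK cells summed to 11026 CPM (Sham) and 16.1 CPM (MI-E), and macrophage markers to 562 and 5572 CPM; their part in the NK values was not tested.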

How the data were processed

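The deposited files hold raw UMI counts per gene and barcode for 3 libraries, made by the submitters with Cell Ranger 5.0.1 and mm10, per the submitters' processing notes; the release of the gene annotation was not given in the sources used here. Barcodes with under 200 genes or over 10% mitochondrial UMIs and marked doublets (Scrublet; the automatic threshold was used for MI-E, and an expected rate of 0.8% per 1000 barcodes for the others) were removed. Cells were clustered with scanpy 1.11.5 (2000 variable genes without members or mitochondrial genes, 30 principal components, 15 neighbours, resolution 1), and 27 clusters were named from marker lists; naming thresholds were set after the clusters were seen. UMIs were summed per class and library; genes needed a mean of 5 CPM over the 2 libraries compared, a pseudocount of 1 CPM was used on the log2 scale, and calls were at 1.5-fold by the ratio of CPM. Intervals at 95% are exact Poisson intervals (scipy 1.17.1). With 1 library per group no p-value was computed. Alternatives included TMM factors (edgeR 4.0.16), other cell filters, depth windows, cluster weighting and a limit on stress UMIs chosen after seeing the data. Scripts were tested on simulated data. Named were all mitochondrial genes; per block the member with the highest level and those with the highest and lowest ratio MI over Sham and MI-E over MI at 20 CPM or more; the tissue isoforms with their partners; the 3 highest and 3 lowest members in neutrophils over monocyte-macrophage cells; and members beside the 5 CPM filter. Other members with values (Ndufs1, Ndufaf7 in monocyte-macrophage cells), the listed genes and the plasmacytoid split were named after their values were seen. Members and lists were chosen with earlier results of these data known.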

Additional observations from a re-analysis of the deposited data

Results flagged for a closer look

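MI-E over Sham, the 2 sets did not move alike in all classes. The nuclear set was 0.978 in B cells, and 1.42 in monocyte-macrophage cells, 1.11 in neutrophils, 1.27 in T cells, 1.29 in dendritic cells and 1.2 in fibroblasts. The mitochondrial set was 0.650 in monocyte-macrophage cells and 0.936 in dendritic cells, and 1.17 in neutrophils, 1.27 in B cells, 1.28 in T cells and 1.27 in NK cells. These values stand apart because their intervals lie on opposite sides of 1 in different classes. The difference between classes was not tested, since each group is 1 library. In monocyte-macrophage clusters shared by Sham and MI-E the mitochondrial ratio was 1.11.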

How the results depend on the processing

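In monocyte-macrophage cells the direction of each set held in every alternative but 1. Values are given as nuclear and mitochondrial MI over Sham, then MI-E over MI, then MI-E over Sham, where they left the counting interval. Shared clusters weighted equally gave 1.53, 0.818, 0.795, 1.58, 1.12 and 1.11, the last reversed from 0.650; 2 nuclear members and 4 mitochondrial genes were lower MI over Sham, and MI-E over MI 3 nuclear members were lower, 7 mitochondrial genes higher and 0 lower. TMM factors gave 2.07, 0.517, 0.785, 1.43, 1.63 and 0.743, and turned the T cell nuclear ratio MI-E over Sham to 0.991. Cells with 4000 to 8000 UMIs gave 1.64, 0.462, 0.811, 1.44, 1.33 and 0.667, with 0 mitochondrial genes lower MI-E over MI. Cells with at most 1% stress UMIs gave 1.65, 0.528, 0.772, 1.41, 1.28 and 0.741, with 3 nuclear members lower MI over Sham. Per UMI of nuclear genes the values were 1.81, 0.452, 0.780, 1.42, 1.41 and 0.643, with 3 lower. Without cycling cells they were 1.80, 0.434, 0.790, 1.45 and, MI-E over Sham, 0.627 for the mitochondrial set, with 3 nuclear members lower MI over Sham and 0 mitochondrial genes lower MI-E over MI. A 5% mitochondrial limit gave 1.82, 0.50, 1.39 (mitochondrial, MI-E over MI), 1.41 and 0.697, with 2 lower. Member genes among the variable genes gave 1.80, 0.472, 1.38 (mitochondrial, MI-E over MI), 1.40 and 0.653. Low-UMI unnamed clusters gave nuclear ratios of 1.82 and 1.41 over Sham, with 2 lower. No mitochondrial filter gave mitochondrial ratios of 0.454 and 1.43, with 2 nuclear members lower, and an NK nuclear ratio MI-E over Sham of 1.02. Means over cells gave 0.469, 0.791, 1.37, 1.46 and 0.642. Each library clustered alone gave 0.457, 0.769, 1.39, 1.41 and 0.636, with 2 lower. Doublets kept gave 0.773 for the nuclear set MI-E over MI, with 2 lower MI over Sham, and MI-E over Sham turned the nuclear ratios of B cells (1.06) and NK cells (1.00) and the fibroblast mitochondrial ratio (0.996). The cause of these differences was not tested, and the share of all genes called was not computed for the alternatives. The 16 directions in other classes held in the alternatives that gave all 16. Shared-cluster weighting was not among them, since no neutrophil cluster held at least 50 cells in both Sham and MI. Each group has 1 library, so intervals cover counting error only and no replicate could be left out. No paired analysis was possible because each group has 1 library.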

Other observations

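An unnamed cluster of shallow barcodes (cluster 20; median of 939 UMIs in MI and 938 in MI-E), led by Gm26917, Lars2, AY036118 and Rmrp, had mitochondrial-set shares of 4.49% and 5.14% and nuclear-set shares of 1.05% and 0.906%. Its ratios MI-E over MI were 0.863 and 1.14 for the nuclear and mitochondrial sets. Cluster 17, unnamed because neutrophil genes (S100a8, S100a9) and monocyte genes led it together, gave 0.746 and 1.48.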
